A study of Mus musculus with 6 samples.

Results

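The genes of the epithelial junctions were followed in submandibular gland cells of p63 knockout and wild-type mice. They were chosen by symbol as the claudins, the other tight junction genes, the core genes of adherens junctions with Epcam and the nectins, and the genes of desmosomes. In all, 58 of the 23366 gene symbols in the table matched: 25 claudins, 8 other tight junction genes, 9 adherens junction genes and 16 desmosome genes. Of these, 35 reached 1 TPM in at least 3 libraries and were tested. TPM is a transcript abundance corrected for gene length and scaled to the same total in each library. RNA-seq libraries came from isolated epithelial cells of this salivary gland, taken at 12 weeks of age. Of the 6 libraries, 3 carry the label p63 knockout and 3 the label p63 wild type. The title of wild-type library 1 has C where those of the other wild-type libraries have WT. The Trp63 gene encodes p63, which controls transcription in basal cells of many epithelia. The labels name no treatment, strain or sex, and they do not say which exons are removed, in which cells, or by which driver. They also do not say how mice were allotted to libraries, and p-values reflect only library-to-library spread, which may be technical in part.

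Neighbouring epithelial cells are held together by 3 kinds of junction. Tight junctions lie nearest the lumen: claudins and the tetraspan proteins occludin and tricellulin span the membrane, JAM-A sits beside them, and the zonula occludens proteins and cingulin tie them to actin. In adherens junctions E-cadherin and the nectins bind the next cell, and catenins link E-cadherin to actin. In desmosomes the desmogleins and desmocollins bind across the gap, while plakoglobin, plakophilins and desmoplakin anchor them to keratin filaments. In salivary glands the claudin make-up sets how leaky acini and ducts are to ions and water, and basal and myoepithelial cells carry desmosomes and hemidesmosomes beneath the luminal cells.

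For Trp63, knockout libraries 1, 2 and 3 gave 1.59, 0.816 and 1.76 TPM, and wild-type libraries 1, 2 and 3 gave 3.48, 1.85 and 3.68 TPM. It was lower in every knockout library but did not pass the test (log2 fold change -0.74, SE 0.27, limma adjusted p = 0.27). Knockout library 3 stood apart. Its 50 most abundant genes took 80.3% of the TPM, against 69.2% to 75.9% in the other libraries, and 10634 genes reached 1 TPM in it, against 11129 to 11235. The median gene tested lay 0.27, 0.24 and -0.29 from the wild-type mean in knockout libraries 1, 2 and 3, on the scale of log2(TPM + 1). Calls on the junction genes and the wider lists are therefore given with and without that library. Epithelial genes were high in all libraries: Epcam stood at 128 to 232 TPM and the keratin gene Krt8 at 160 to 270 TPM. Markers of other cells were present too, with Pecam1 of endothelium at 5.83 to 11.05 TPM and Vim of mesenchymal cells at 5.46 to 37.2 TPM. Some were near the level of Epcam: Dcn of fibroblasts at 107 to 223 TPM and Acta2 of myoepithelial cells at 71.1 to 247 TPM. H2-Aa of white blood cells stood at 20.3 to 151 TPM.

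Start-site sequences are shown for 4 members, to let the levels below be read beside motifs that p63 and the repressors of epithelial genes are known to bind. They are the 250 bases before the start in RefSeq (GRCm38.p6), whereas the expression values rest on mm9. The table of start sites held 35 of the 58 members, and these include members that were not tested. Tested members without an entry were not searched, among them Perp, Cdh1, Dsg2, Ctnna1, Cldn8, Cldn25, Pkp1 and Dsc2. Searched on both strands were the E-box CAGGTG, the motif of Snail and Zeb repressors, the grainyhead-like motif AACCGGTT and the p53 family decamer. Places found on both strands were counted once, and the capitals mark the matches. Among the tested members searched, desmoplakin and the zonula occludens gene Tjp1 were the 2 with the p53 family decamer. F11r and Cldn4 each held 1 E-box. Other tested members with the E-box, not shown, were Epcam, Ocln, Cldn7, Tjp3, Pkp4 and Pvrl2. Without knockout library 3, F11r, Cldn4, Pkp4 and Pvrl2 passed as higher, and Epcam, Ocln, Cldn7 and Tjp3 did not. In that fit 57.1% of the 35 members tested and 33.8% of all genes passed as higher. The Dsp stretch is chr13:38151044-38151293 on the plus strand, Tjp1 chr7:65371245-65371494 on the minus strand, F11r chr1:171437311-171437560 on the plus strand and Cldn4 chr5:134946935-134947184 on the minus strand.
Dsp: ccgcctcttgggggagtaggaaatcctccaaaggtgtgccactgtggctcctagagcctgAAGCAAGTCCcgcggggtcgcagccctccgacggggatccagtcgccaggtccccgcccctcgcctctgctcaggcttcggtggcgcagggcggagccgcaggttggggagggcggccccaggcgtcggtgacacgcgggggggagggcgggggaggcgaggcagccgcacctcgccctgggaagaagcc
Tjp1: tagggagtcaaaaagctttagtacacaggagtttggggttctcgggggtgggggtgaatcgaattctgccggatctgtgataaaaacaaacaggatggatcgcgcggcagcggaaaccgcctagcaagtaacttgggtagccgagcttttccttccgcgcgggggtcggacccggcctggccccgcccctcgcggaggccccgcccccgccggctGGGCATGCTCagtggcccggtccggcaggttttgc
F11r: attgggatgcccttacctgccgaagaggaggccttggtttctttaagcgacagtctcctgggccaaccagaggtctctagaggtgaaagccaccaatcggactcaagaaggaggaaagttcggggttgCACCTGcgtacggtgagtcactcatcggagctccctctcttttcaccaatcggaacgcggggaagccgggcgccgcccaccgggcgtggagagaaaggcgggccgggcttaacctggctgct
Cldn4: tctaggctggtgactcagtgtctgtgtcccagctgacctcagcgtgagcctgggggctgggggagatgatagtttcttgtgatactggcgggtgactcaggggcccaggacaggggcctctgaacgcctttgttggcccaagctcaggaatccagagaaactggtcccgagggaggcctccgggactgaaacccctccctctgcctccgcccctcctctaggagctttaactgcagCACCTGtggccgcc
The E-box was found in 22.4% of 49 junction promoters and in 17.2% of all 32851 promoters of the same length. The p53 family decamer was found in 10.2% and 7.13%, and the grainyhead-like motif in 0% and 0.116%.

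The summed TPM of all 58 genes was 2049, 2027 and 1067 in knockout libraries 1, 2 and 3 and 1559, 1459 and 1413 in wild-type libraries 1, 2 and 3. Knockout libraries 1 and 2 thus lay above every wild-type library and knockout library 3 below every one. None of the 35 tested members passed in limma with Benjamini-Hochberg adjustment at 0.05 (0 higher, 0 lower), where 0.39% of the 11268 genes tested passed (0.071% higher and 0.319% lower). At an unadjusted p under 0.05 there were 3 members (8.57%), all lower in the knockout, against 15.4% of all genes. The median log2 fold change of the members was 0.29, against 0.09 over all genes, with 23 members at positive and 12 at negative values. By library the median was 0.65, 0.52 and -0.40 in knockout libraries 1, 2 and 3. Of the 35 members, 28 and 26 lay above the wild-type mean in knockout libraries 1 and 2, where 7348 and 7206 of all 11268 genes did. In knockout library 3, 3 members lay above it (Cldn1, Pvrl3 and Dsc3), as did 2024 of all 11268 genes.

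**Figure D1:**
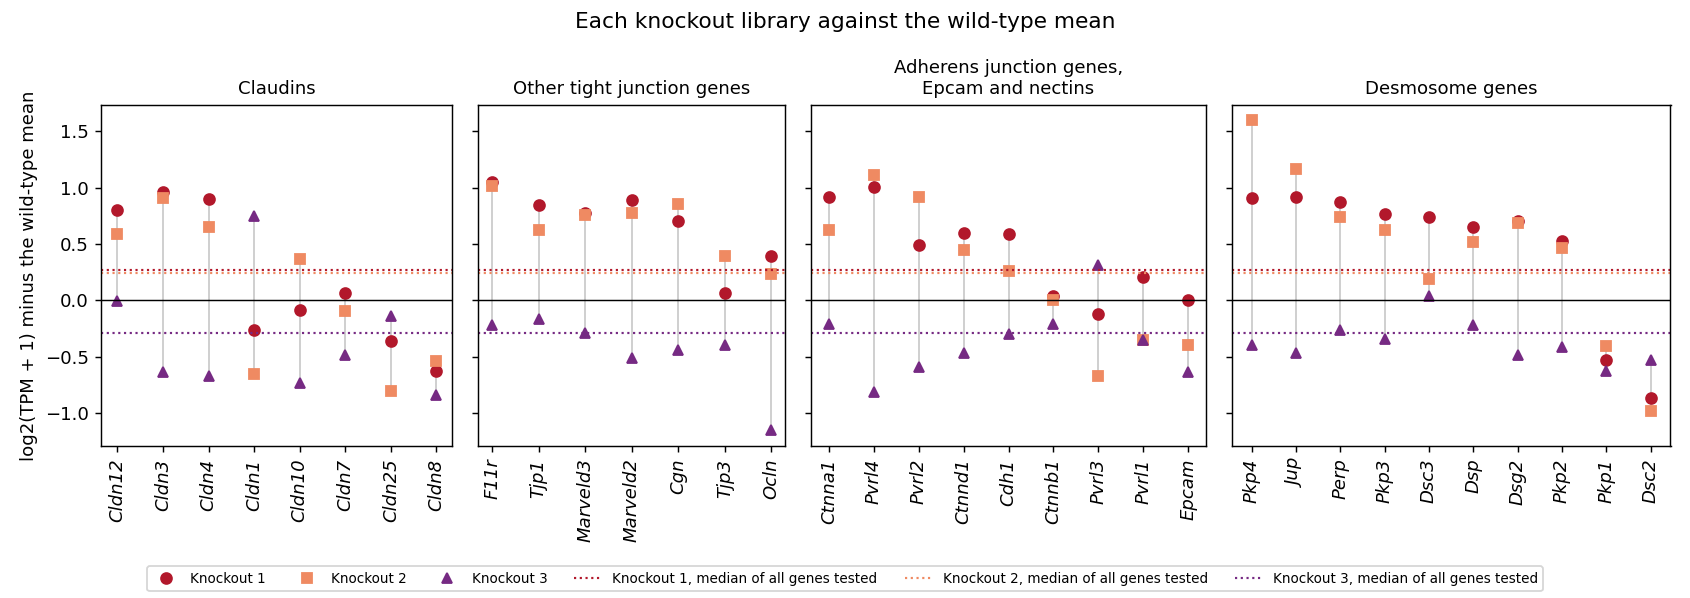
Difference of each knockout library from the wild-type mean for the junction genes tested that are reported by name, on the log2(TPM + 1) scale, ordered by fold change within 4 classes. Dotted lines are the medians of all genes tested in each library, and most members lie above 0 in knockout libraries 1 and 2 and below it in knockout library 3, with Cldn8, Cldn25, Pkp1 and Dsc2 below 0 in all 3.

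Without knockout library 3, 20 members passed as higher (57.1%, against 33.8% of all genes) and 3 as lower (8.57%, against 11.7% of all genes). The median of the members was then 0.58 and that of all genes 0.26. This fit set knockout libraries 1 and 2 against the 3 wild-type libraries on the TPM as deposited. It was not repeated after scaling, so all its fold changes and calls include the shift of all genes. In that comparison 21 members were apart with the knockout higher, against 47.3% of all genes, and 5 with it lower, against 19.8%. With median-of-ratios scaling the median of all genes was 0.03, 0.03 and 0.02 in knockout libraries 1, 2 and 3. The members stood at 0.37, 0.28 and -0.07 on that scaling. In knockout library 3, 14 of them lay above the wild-type mean, as did 5865 of all 11268 genes. That library thus still lay below the other knockout libraries after scaling, by less than before. With all 6 libraries no member passed under median-of-ratios scaling, quantile normalization or rescaling without the 50 most abundant genes, where the lowest adjusted p of a member was 0.11, 0.11 and 0.12.

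**Figure D2:**
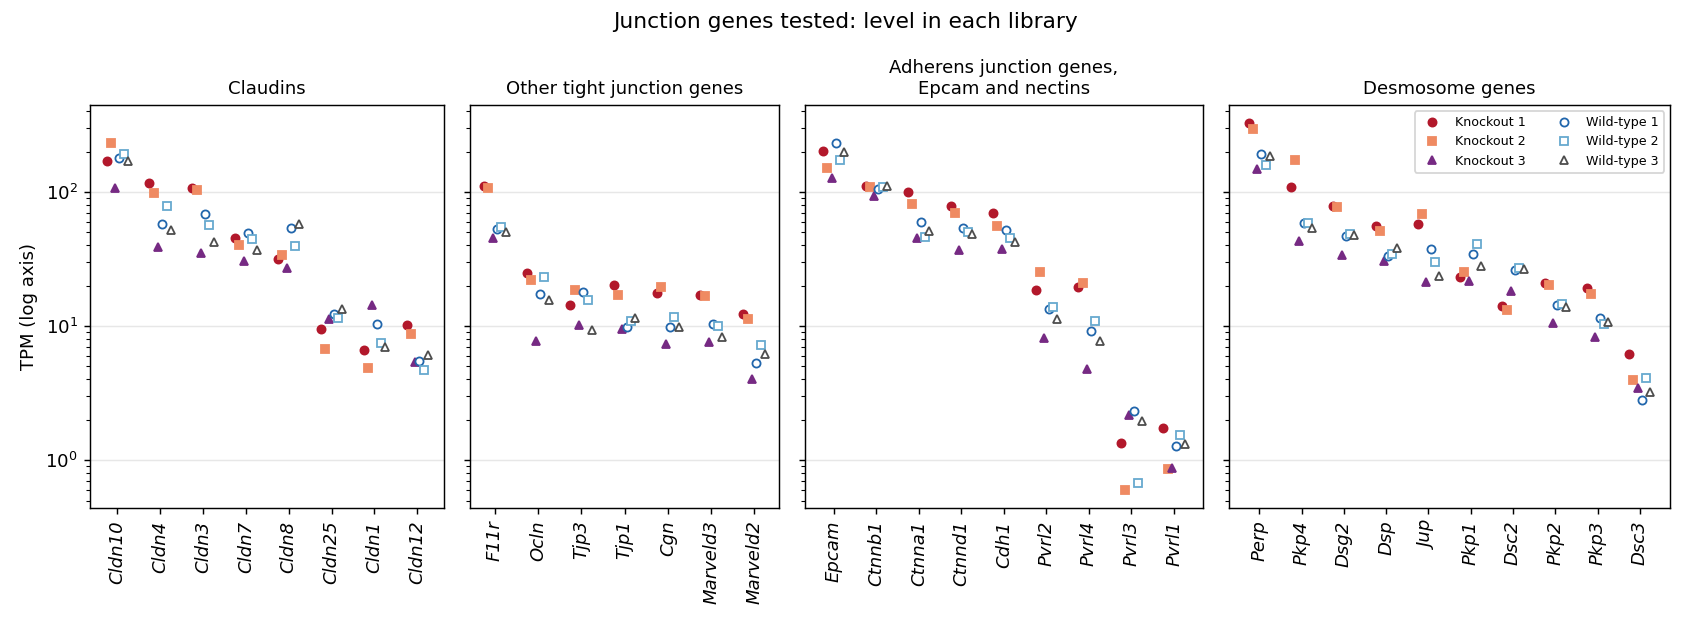
TPM of the junction genes tested that are reported by name, in each of the 6 libraries, on a log axis, ordered by mean level within 4 classes (filled symbols knockout, open symbols wild type). Perp, Cldn10 and Epcam were the most abundant members, and F11r shows the common pattern, with 110 and 108 TPM in knockout libraries 1 and 2, 45.3 TPM in knockout library 3 and 50.4 to 54.9 TPM in wild type.

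Among the claudins, Cldn8 and Cldn25 were lower in every knockout library than in any wild-type library, while Cldn3, Cldn4 and Cldn12 were high in knockout libraries 1 and 2. Of the 25 claudins, 8 were tested, 0 passed, and 3 had positive and 5 negative log2 fold changes (median -0.10). Cldn8, a claudin that tightens distal ducts against cations, was measured at 31.9, 33.9 and 27.3 TPM in the knockout and 53.6, 39.7 and 57.4 TPM in wild type. The groups were apart, but the test was not passed (log2 fold change -0.67, SE 0.22, limma adjusted p = 0.23). It passed without knockout library 3, at -0.58 (adjusted p = 0.037). Cldn25 stood at 9.50, 6.72 and 11.2 TPM in the knockout and 12.4, 11.5 and 13.5 TPM in wild type (log2 fold change -0.43, SE 0.24, adjusted p = 0.40). In the RefSeq names used here the symbol Cldn25 is an older name of 2 genes, Cldnd1 and Cldn25-ps, and the table does not say which was counted. Its groups overlapped under each of the 3 scalings, whereas those of Cldn8 stayed apart in all of them.

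Cldn10, whose products form ion-selective pores in secretory epithelia, was the most abundant claudin. It stood at 169, 231 and 107 TPM in the knockout and 178, 191 and 169 TPM in wild type, so the wild-type values lay inside the range of the knockout (log2 fold change -0.15, SE 0.28, limma adjusted p = 0.79). Cldn3, a sealing claudin, measured 107, 104 and 35.0 TPM against 68.7, 56.2 and 42.7 TPM (log2 fold change 0.41, SE 0.44, adjusted p = 0.62). Cldn4, another claudin of tight epithelia, showed the same split, at 116, 97.8 and 38.6 TPM against 58.0, 78.6 and 52.4 TPM. For both genes the highest and the lowest of all 6 values were in knockout libraries. Cldn12, a claudin that lacks the usual PDZ-binding end, measured 10.1, 8.65 and 5.38 TPM against 5.48, 4.69 and 6.11 TPM. Without knockout library 3 the log2 fold changes were 0.93 for Cldn3 (adjusted p = 0.010), 0.77 for Cldn4 (adjusted p = 0.018) and 0.70 for Cldn12 (adjusted p = 0.012), and all 3 passed. Cldn7, which Epcam protects from degradation, stood at 45.5, 40.4 and 30.6 TPM against 49.1, 44.7 and 37.0 TPM and did not pass with or without that library. Cldn1, a barrier claudin of skin and other stratified epithelia, went the other way from its class: it was highest in knockout library 3 (14.4 TPM) and lowest in knockout libraries 1 and 2 (6.62 and 4.85 TPM), with wild type at 10.3, 7.501 and 7.03 TPM.

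The remaining 17 claudins did not reach the filter, and 5 of them were listed at 0 in all libraries (Cldn13, Cldn14, Cldn16, Cldn18 and Cldn26). Cldn23 stood closest to the limit, at 2.46, 2.97 and 0.423 TPM in the knockout and 0.876, 0.996 and 0.879 TPM in wild type. Cldn15 reached 1.98 TPM in knockout library 1 and lay between 0.0879 and 0.564 TPM in the others. Cldn5, the claudin of blood vessels, lay between 0.540 and 1.39 TPM. Cldn22 reached 1.31 TPM in wild-type library 2, and the other claudins below the filter stayed under 1 TPM in all libraries.

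The make-up of the claudin pool was compared within libraries, as each gene's share of the summed claudin TPM. In this and the later sets the shares depend on each other, as a lower share of 1 gene raises those of the others. Cldn10 held 33.5%, 43.4% and 39.4% in knockout libraries 1, 2 and 3 and 40.5%, 43.5% and 43.5% in wild-type libraries 1, 2 and 3. Cldn8 held 6.33%, 6.37% and 10.04% in the knockout against 12.2%, 9.05% and 14.8% in wild type, a mean of 7.58% ± 2.13 against 12.0% ± 2.88 (SD, n = 3 each). Knockout library 3 lay within the wild-type range, and the exact permutation p (two-sided) was 0.20. The smallest p that 3 libraries against 3 can give is 0.1, so none of the 74 shares compared could reach 0.05, before or after adjustment. Cldn12 was the claudin among those tested whose shares were apart, at 2.01%, 1.63% and 1.98% against 1.25%, 1.07% and 1.58% (exact permutation p = 0.1).

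**Figure D3:**
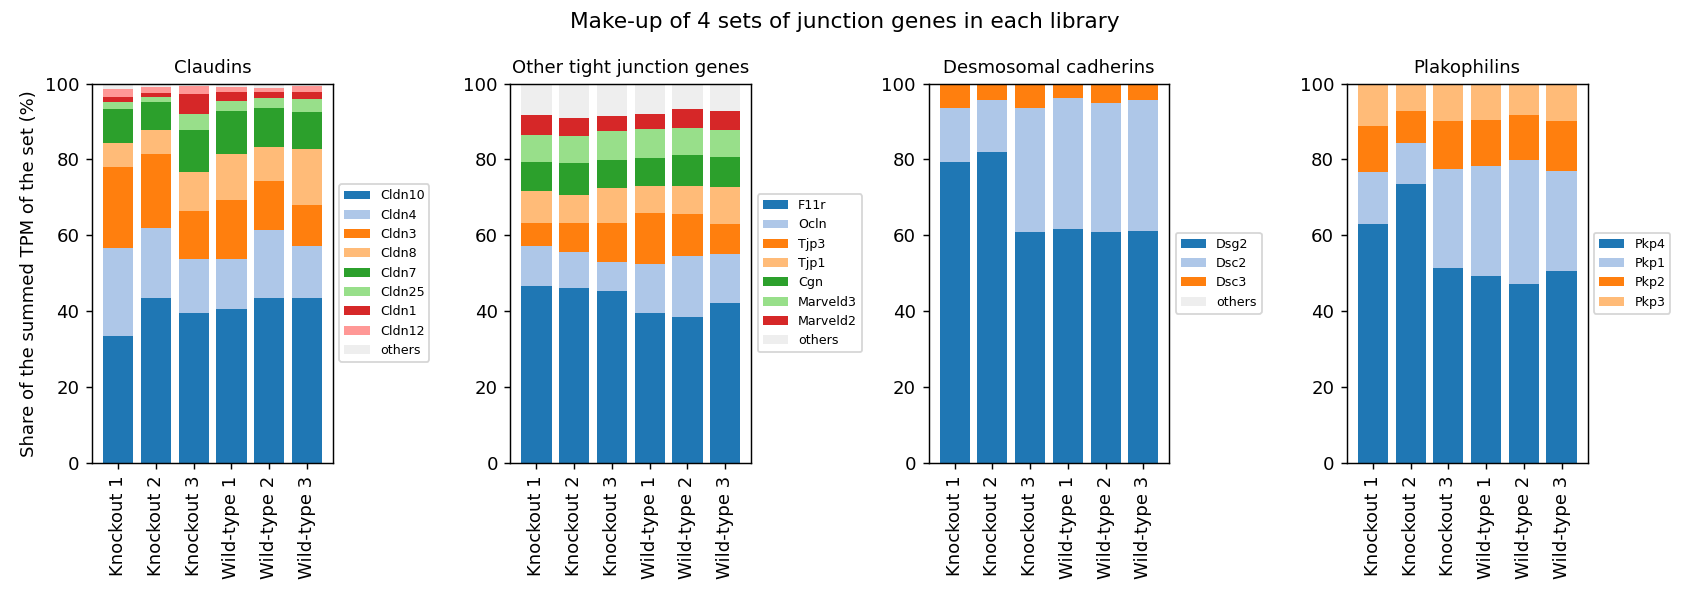
Stacked shares of the summed TPM held by each gene in 4 sets (claudins, other tight junction genes, desmosomal cadherins, plakophilins) in each library, from 0% to 100%, with the remaining genes of a set drawn as others. In the desmosomal cadherins Dsc2 held 14.4% and 13.9% in knockout libraries 1 and 2 and 32.8% to 34.7% in the other 4 libraries.

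On the TPM as deposited, all 8 of the other tight junction genes lay above the wild-type mean in knockout libraries 1 and 2. Of all 11268 genes, 7348 and 7206 did. All 8 lay below it in knockout library 3, where 2024 of all 11268 genes lay above it. With median-of-ratios scaling 7, 7 and 4 of the 8 lay above it in knockout libraries 1, 2 and 3. Of all 11268 genes, 5837, 5835 and 5865 did on that scaling. None passed (0 of 8, median log2 fold change 0.40). F11r, which encodes the adhesion molecule JAM-A, stood at 110, 108 and 45.3 TPM in the knockout and 53.2, 54.9 and 50.4 TPM in wild type (log2 fold change 0.62, SE 0.35, limma adjusted p = 0.40). Tjp1, the scaffold ZO-1, measured 20.1, 17.1 and 9.45 TPM against 9.88, 10.8 and 11.6 TPM (log2 fold change 0.43, SE 0.30, adjusted p = 0.46). In both genes knockout libraries 1 and 2 lay above all wild-type values and knockout library 3 below all of them. Under each of the 3 scalings both were apart and higher in the knockout, as was Cldn12. Dsp was so under median-of-ratios and quantile scaling, and Perp under median-of-ratios scaling alone. Tjp3, the scaffold ZO-3, overlapped between the groups at 14.5, 18.4 and 10.2 TPM against 18.1, 15.5 and 9.29 TPM.

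Ocln, encoding the membrane protein occludin, had the lowest value in knockout library 3 (7.76 TPM) and 24.7 and 21.9 TPM in the other knockout libraries, against 17.3, 23.2 and 15.7 TPM in wild type. Marveld3, of the same membrane protein family, stood at 17.0, 16.8 and 7.63 TPM against 10.4, 9.99 and 8.33 TPM. Marveld2, which encodes tricellulin of 3-cell contacts, and the actin linker gene Cgn, cingulin, had log2 fold changes of 0.38 and 0.37 (limma adjusted p = 0.61 and 0.58). Without knockout library 3, 6 of the 8 genes passed as higher (33.8% of all genes did), at 0.73 for Tjp1 (adjusted p = 0.0070) to 1.03 for F11r (adjusted p = 0.0012), while Ocln (0.32, adjusted p = 0.20) and Tjp3 (0.23, adjusted p = 0.51) did not. Within the class, F11r held 46.7%, 46.1% and 45.2% of the summed TPM in the knockout and 39.5%, 38.4% and 42.1% in wild type. Ocln held 10.4%, 9.38% and 7.74% against 12.8%, 16.2% and 13.1%. Scaling a whole library by 1 factor leaves such shares as they are. Those of both genes were apart with knockout library 3 included (exact permutation p = 0.1 for each).

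In the adherens junction class no gene was apart between the groups on the TPM as deposited. After scaling, Epcam was apart and lower under median-of-ratios and under rescaling without the 50 most abundant genes, and Ctnna1 was apart and higher under quantile normalization and that rescaling. Of 9 genes tested 0 passed (median log2 fold change 0.18). Ctnnb1, encoding the cadherin linker and Wnt effector beta-catenin, had the narrowest spread, at 111, 108 and 93.5 TPM in the knockout and 104, 109 and 111 TPM in wild type (log2 fold change -0.06, SE 0.17, limma adjusted p = 0.88). Cdh1, encoding E-cadherin, stood at 70.2, 55.8 and 37.5 TPM against 51.7, 45.5 and 42.6 TPM (log2 fold change 0.18, SE 0.26, adjusted p = 0.72). For E-cadherin the wild-type values lay between those of the knockout libraries. Ctnna1, alpha-catenin, which binds actin, measured 99.7, 81.2 and 45.1 TPM against 59.7, 46.5 and 51.4 TPM. Ctnnd1, the p120 catenin that keeps E-cadherin at the surface, measured 77.9, 69.7 and 36.8 TPM against 54.1, 50.3 and 48.9 TPM. Both passed as higher without knockout library 3, Ctnna1 at 0.77 (adjusted p = 0.0092) and Ctnnd1 at 0.52 (adjusted p = 0.017), and Cdh1 did not (0.42, adjusted p = 0.067).

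Epcam, an adhesion molecule of simple epithelia, stood at 200.2, 151 and 128 TPM in the knockout and 232, 172 and 199 TPM in wild type (log2 fold change -0.34, SE 0.23, limma adjusted p = 0.46). Its share of the class was apart, at 33.4%, 29.4% and 35.9% against 43.9%, 38.2% and 41.8%. The share of Ctnna1 was higher, at 16.6%, 15.8% and 12.6% against 11.3%, 10.3% and 10.8% (exact permutation p = 0.1 for each gene). Shares of a class depend on each other, so these are not separate results. The nectins are listed under their older symbols. Pvrl4, nectin-4, had the widest spread of the class, at 19.4, 20.9 and 4.79 TPM against 9.19, 10.9 and 7.71 TPM. Pvrl2, nectin-2, measured 18.4, 25.1 and 8.15 TPM against 13.5, 13.8 and 11.3 TPM. Once knockout library 3 was left out both passed as higher, at 1.06 (adjusted p = 0.0031) and 0.71 (adjusted p = 0.017). Pvrl1 and Pvrl3 lay between 0.604 and 2.32 TPM in all libraries and did not pass either way.

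Desmosome genes held both the largest positive and the largest negative log2 fold changes of the members tested. Of 16 genes 10 were tested and 0 passed (median log2 fold change 0.32). Dsc2, the desmocollin of simple epithelia, was low in all knockout libraries, at 14.2, 13.1 and 18.2 TPM against 26.2, 27.2 and 26.8 TPM. The wild-type libraries lay close together (26.8 ± 0.499 TPM, SD, n = 3) and the knockout was at 15.2 ± 2.70 TPM (log2 fold change -0.79, SE 0.21, limma adjusted p = 0.14, the lowest of any member). When knockout library 3 was left out it passed at -0.92 (adjusted p = 0.0018). Pkp1, a plakophilin found mainly in stratified epithelia, stood at 23.4, 25.5 and 21.8 TPM against 34.5, 40.9 and 28.2 TPM (log2 fold change -0.52, SE 0.21, adjusted p = 0.31). It did not pass without knockout library 3 either (-0.47, adjusted p = 0.068).

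Cldn8, Cldn25, Pkp1 and Dsc2 were the 4 of 35 members (11.4%) whose groups were apart, all with the knockout lower, where 21.1% of all genes were apart and 15.6% were apart and lower. On the TPM as deposited no member was apart with the knockout higher, where 5.42% of all genes were. After scaling there were 6 such members under median-of-ratios (14.6% of all genes), 6 under quantile normalization (13.4%) and 5 under rescaling without the 50 most abundant genes (12.8%). Those apart and lower numbered 3, 3 and 4 (13.8%, 14.5% and 14.5% of all genes). Under median-of-ratios scaling Pkp1 no longer stood apart, at 28.7 in knockout library 3 and 28.3 in wild-type library 3. Dsc2 stayed apart on that scaling, at 11.9, 11.2 and 24.0 against 26.3, 28.5 and 27.0. The summed TPM of the 8 basal markers was lower in the knockout as well, at 44.3 to 79.5 against 163 to 182 in wild type. On the TPM as deposited, Dsc2 and Cldn25 ranked the knockout libraries in the same order as this sum. The order of the sum depended on Ngfr, at 10.3, 6.13 and 39.6 TPM in knockout libraries 1, 2 and 3. Krt14 had that order too, at 9.89, 6.07 and 11.6 TPM, and Itgb4 had the reverse, at 19.3, 23.2 and 7.49 TPM. On the TPM as deposited, Cldn8 and Pkp1 ranked the knockout libraries in the reverse order of the sum. That reverse order was not kept under median-of-ratios scaling, where both genes were highest in knockout library 3. On that scaling knockout libraries 1, 2 and 3 stood at 26.7, 28.98 and 35.9 for Cldn8 and 19.6, 21.8 and 28.7 for Pkp1. Of the 7 basal markers tested, 5 were apart and lower (Trp63 itself among them), Itgb4 was apart and higher, and 1, Krt14, passed as lower. Krt5 stood at 0.191 TPM in knockout library 2 and no basal marker was at 0 in all libraries. Of the 10 duct markers 4 were apart and lower, none passed, and their sum was 654 to 1692 TPM against 865 to 1022 TPM. Among the 4 was Krt7 (93.5, 139 and 108 TPM against 235, 239 and 185 TPM). Markers of some other cells were lower as well. All 5 myoepithelial markers tested were apart and lower, with Cnn1 passing (limma adjusted p = 0.035). The sum of the myoepithelial markers was 183 to 296 TPM against 491 to 537 TPM. All 7 markers of white blood cells were apart and lower, 0 passing, with sums of 103 to 203 TPM against 397 to 457 TPM. Of 7 fibroblast markers 4 were apart and lower, with Col3a1 passing (limma adjusted p = 0.044). Summed markers of acini and of neighbouring glands were higher in every knockout library. They were 187735 to 240148 against 134632 to 156926 TPM for acini, and 55358 to 82803 against 41709 to 49284 TPM for neighbouring glands. The acinar sum was mostly Prol1 and Pip, at 110174 and 75821 TPM in knockout library 1. These were the 2 of 8 acinar markers tested that were apart and higher, and 1 of 5 was so for neighbouring glands (5.42% of all genes). The median log2 fold changes of the 2 lists were 0.06 and -0.02. Summed nerve markers were 111, 108 and 39.7 TPM in knockout libraries 1, 2 and 3 against 39.0 to 45.5 TPM. Without knockout library 3, 5 basal, 3 myoepithelial, 7 white blood cell, 4 fibroblast, 4 endothelial and 3 duct markers passed as lower (11.7% of all genes). Those passing as higher were 1 basal, 4 duct, 1 endothelial, 1 acinar and 2 nerve markers (33.8% of all genes). The part of these cells in the levels of the junction genes was not tested. In bulk samples fewer cells of a type and less RNA per cell cannot be told apart.

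Most other desmosome genes were high in knockout libraries 1 and 2. Pkp4, a plakophilin relative that also binds adherens junctions, stood at 108, 174 and 43.1 TPM in the knockout and 58.4, 58.7 and 53.9 TPM in wild type (log2 fold change 0.70, SE 0.46, limma adjusted p = 0.45). Perp, a tetraspan desmosome protein and a known target of p63 in stratified epithelia, was the most abundant member of all, at 326, 296 and 148 TPM against 192, 158 and 185 TPM (log2 fold change 0.45, SE 0.31, adjusted p = 0.47). Its values in knockout libraries 1 and 2 were the highest of any junction gene. Jup, encoding plakoglobin, measured 57.4, 68.3 and 21.4 TPM against 37.7, 30.04 and 23.8 TPM. Dsp, encoding desmoplakin, which binds keratin, measured 55.9, 51.1 and 30.3 TPM against 33.2, 34.6 and 38.3 TPM. Dsg2, the desmoglein of simple epithelia, measured 78.2, 77.2 and 33.8 TPM against 46.6, 48.9 and 47.5 TPM. In each of these 5 genes knockout library 3 held the lowest value of all 6.

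Without knockout library 3, 7 of the 10 desmosome genes passed as higher (33.8% of all genes did), at 0.50 for Pkp2 (limma adjusted p = 0.017) to 1.25 for Pkp4 (adjusted p = 0.0037). Perp was among them at 0.80 (adjusted p = 0.0056), as were Jup at 1.04 (adjusted p = 0.0071), Dsp at 0.58 (adjusted p = 0.012), Dsg2 at 0.69 (adjusted p = 0.0044) and Pkp3 at 0.70 (adjusted p = 0.0062). Dsc3, a desmocollin of basal cells, stood at 6.24, 3.96 and 3.46 TPM against 2.82, 4.11 and 3.22 TPM and did not pass either way. The skin desmosome genes were absent or close to it: Dsc1, Dsg1b and Dsg4 were listed at 0 in all libraries, and Dsg1a, Dsg1c and Dsg3 did not exceed 0.0922 TPM. The Dsg1 genes are near-identical copies, so reads may be split between them.

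**Figure D4:**
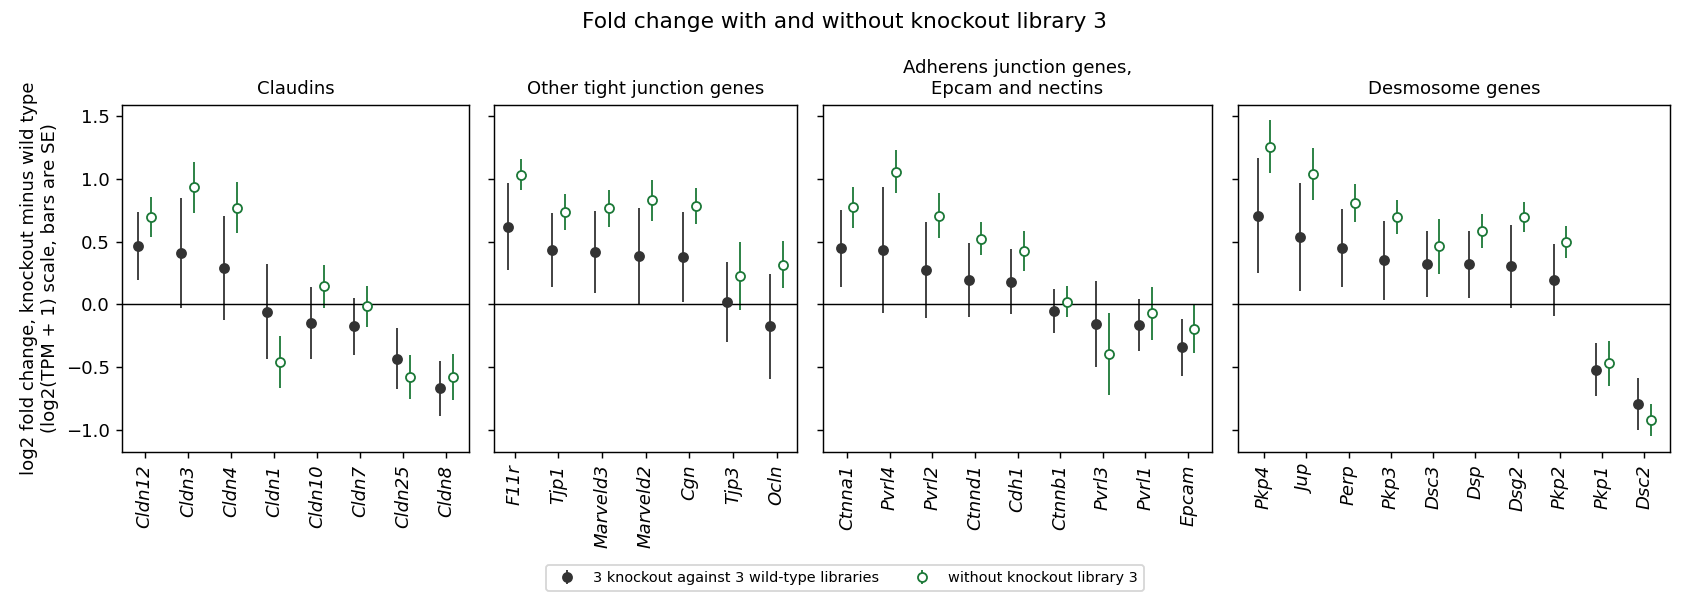
Log2 fold change of each junction gene tested that is reported by name, knockout minus wild type, with its SE, for all 6 libraries (filled) and without knockout library 3 (open). Leaving that library out moved Pkp4 from 0.70 to 1.25 and F11r from 0.62 to 1.03, while Dsc2 was at -0.79 and -0.92 and Cldn8 at -0.67 and -0.58.

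The balance within the desmosome differed between the knockout libraries. Among the desmosomal cadherins, Dsc2 held 14.4% and 13.9% of the summed TPM in knockout libraries 1 and 2 and 32.8% in knockout library 3, against 34.7%, 33.9% and 34.6% in wild type. Dsg2 took up most of the rest, at 79.2%, 81.9% and 60.9% against 61.6%, 60.9% and 61.1%. Knockout library 3 thus had nearly the wild-type make-up, and the Dsc2 groups were apart by a narrow margin (exact permutation p = 0.1). Among the plakophilins, Pkp1 held 13.6%, 10.7% and 26.1% in the knockout and 29.1%, 32.8% and 26.4% in wild type, and Pkp4 held 62.99%, 73.5% and 51.5% against 49.2%, 47.2% and 50.6%. Again the groups were apart (exact permutation p = 0.1 for each), with knockout library 3 next to wild type.

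The wider lists cover genes that work with the junctions. In the fit without knockout library 3, 33.8% of all genes passed as higher and 11.7% as lower, and with all libraries 15.4% of all genes had an unadjusted p under 0.05. Of 16 tested genes of the polarity complexes, which place the junctions along the cell side, 0 passed (1 at an unadjusted p under 0.05), and 9 passed as higher without knockout library 3 (33.8% of all genes). Pard6b stood at 14.3, 10.2 and 3.64 TPM against 2.32, 3.11 and 3.40 TPM (log2 fold change 1.25, SE 0.43, adjusted p = 0.24) and was apart. Llgl2, a regulator of the basolateral side, measured 41.6, 47.1 and 7.72 TPM against 10.5, 10.9 and 9.95 TPM (log2 fold change 1.19, adjusted p = 0.37). Of 18 tested scaffolds and linkers 0 passed (4 at an unadjusted p under 0.05), with a median log2 fold change of 0.63, and 13 passed as higher without knockout library 3, with the same share of all genes. Amotl2, an angiomotin of the junction belt, stood at 43.0, 14.2 and 2.66 TPM against 4.59, 4.46 and 3.92 TPM. Plekha7, which ties p120 catenin to microtubules, stood at 19.1, 26.4 and 5.63 TPM against 5.29, 6.24 and 5.10 TPM. Actn1, an actin crosslinker named after its values were seen, was higher in all knockout libraries, at 32.4, 37.5 and 15.6 TPM against 10.9, 9.66 and 12.5 TPM (adjusted p = 0.15).

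Other adhesion receptors included genes that were low in all knockout libraries. Of 13 tested 0 passed (6 at an unadjusted p under 0.05, against 15.4% of all genes), with 5 apart and lower (15.6% of all genes) and 1 apart and higher (5.42%). Without knockout library 3, 2 passed as higher, Ildr1 and Pcdh1, and 3 as lower, Jam2, Jam3 and Igsf5 (33.8% and 11.7% of all genes). Jam3, a relative of JAM-A found also on endothelial and mesenchymal cells, stood at 0.641, 0.883 and 1.03 TPM in the knockout and 3.12, 2.496 and 3.55 TPM in wild type (log2 fold change -1.13, SE 0.20, limma adjusted p = 0.064; without knockout library 3 -1.20, adjusted p = 0.0027). The others apart and lower were Jam2, Igsf5, Cdh3 and Cdh11. Pcdh1, a protocadherin of epithelia, was apart and higher, at 23.05, 23.5 and 8.60 TPM against 7.90, 6.62 and 7.80 TPM (log2 fold change 1.08, adjusted p = 0.25). Summed endothelial markers (10 genes, none at 0 in all libraries) were 26.1 to 37.6 TPM in the knockout and 39.2 to 44.5 TPM in wild type. Summed fibroblast markers (7 genes) were 142 to 299.4 TPM against 299.38 to 392 TPM. Their part in the Jam3 values was not tested. Of the gap junction genes 3 were tested and 0 passed (1 at an unadjusted p under 0.05). Gja1, the connexin of myoepithelial and mesenchymal cells, stood at 2.60, 2.02 and 1.82 TPM against 4.999, 5.43 and 3.67 TPM (log2 fold change -0.85, SE 0.23, adjusted p = 0.14). It passed as lower once knockout library 3 was left out (-0.78, adjusted p = 0.016), the 1 gene of the 3 to do so, while Gjb1, the connexin of acinar cells, overlapped at 53.5, 46.0 and 52.4 TPM against 52.6, 46.2 and 33.3 TPM.

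Among 13 tested regulators of epithelial transcription and splicing 0 passed (2 at an unadjusted p under 0.05, against 15.4% of all genes). In the fit without knockout library 3, 6 passed as higher and 1 as lower (33.8% and 11.7% of all genes). Ovol2, which holds epithelial identity, stood at 22.1, 12.8 and 2.35 TPM in the knockout and 3.78, 2.72 and 2.34 TPM in wild type (log2 fold change 1.39, SE 0.64, limma adjusted p = 0.35). Klf5, a factor of proliferating epithelia, measured 17.1, 9.56 and 2.73 TPM against 3.56, 3.05 and 3.49 TPM. Of the E-cadherin repressors 4 were tested and 0 passed (2 at an unadjusted p under 0.05, against 15.4% of all genes). With knockout library 3 left out, Tcf3 and Tcf4 passed as higher and Snai2 as lower (33.8% and 11.7% of all genes). Snai2, a repressor that binds the E-box and is found in basal and mesenchymal cells, was apart and lower, at 1.44, 0.761 and 1.17 TPM against 3.57, 2.51 and 3.80 TPM (log2 fold change -1.02, SE 0.22, adjusted p = 0.092), and at -1.04 without knockout library 3 (adjusted p = 0.0091). Tcf4, another E-box factor, overlapped at 10.98, 10.97 and 4.90 TPM against 5.40, 5.42 and 5.96 TPM, and stood at 0.86 without knockout library 3 (adjusted p = 0.0029). Cdh1 itself, the gene these factors are named for here, had a log2 fold change of 0.18.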

How the data were processed

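RNA-seq was done on 3 knockout and 3 wild-type libraries, made with an Illumina TruSeq kit per the labels' protocols. The authors deposited TPM. Per the labels, read counts were normalized by gene length and library size to obtain them. The submitters' processing notes name TopHat2 2.1.1, Bowtie2 2.2.6, featureCounts 1.5.1, DESeq2 1.20.0 and mm9. Annotation, strand setting and handling of shared reads are not given in the sources used here. TPM keeps no depth, so no counting error is given.

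The genotype label set the groups. Within a group, accession order gave the replicate number. Tests used log2(TPM + 1), a scale that understates fold changes of low genes. The filter kept genes reaching 1 TPM in 3 or more libraries. The model was limma 3.58.1 (mean-variance trend) under R 4.3.3, with two-sided p-values adjusted by Benjamini-Hochberg over all 11268 genes and a threshold of 0.05. Means and SDs refer to TPM and the SE to log2 fold changes. Groups are called apart where all values of one exceed all of the other. The procedure was tested on simulated data.

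The members and lists were chosen with earlier results of these data known. Named genes are, in each class, the 4 most abundant and the 4 with the largest change, and the 2 with the largest change in each wider list, beside any that passed. Other genes were named after their values were seen. A member is counted but not reported by name here. Lists of nerve, acini and neighbouring glands were also summed: 39.7 to 111 TPM in the knockout against 39.0 to 45.5 TPM, 187735 to 240148 against 134632 to 156926 TPM, and 55358 to 82803 against 41709 to 49284 TPM. Of the 58 symbols, 57 matched 1 RefSeq gene. Python 3.11.15 and matplotlib 3.10.9 made the figures. Alternatives were pseudocounts, filters, scalings, limma settings, a block, and leaving out each library. The shares outside the claudins, and their values without each library, were added after seeing the data.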

Additional observations from a re-analysis of the deposited data

How the results depend on the processing

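With all 6 libraries no junction gene passed under the other pseudocounts, filters and scalings, without the trend, or with the block, and none passed without any 1 library other than knockout library 3. Array weights, which gave that library the weight 0.0900, called 23 members (20 higher, 3 lower), as did the fit without it. Over the fits without 1 library the members called ranged from 0 to 23, and the genes called over the whole table ranged from 0 to 5127. Among all genes tested, 44 were called, against 25 with a pseudocount of 0.1 TPM, 0 with no filter (2498 at an unadjusted p under 0.05), 29 with a filter of 5 TPM, 72 with quantile normalization and 4822 with array weights. The count without wild-type library 1 was 1, and without wild-type library 2 or 3 it was 0 (1024 and 1020 at an unadjusted p under 0.05). The median of the members was 0.29, between 0.10 and 0.58 over the fits without 1 library, and 0.01 with no filter, where the 23 low members entered. Cldn8, Cldn25, Dsc2 and Pkp1 were negative in all 16 alternatives, while Ocln, Cldn10, Cldn1, Tjp3, Cldn4, Cdh1, Ctnnb1, Ctnnd1, Pvrl2 and Pvrl3 took the opposite sign in at least 1. The replicate block paired libraries with neighbouring index numbers in their titles, which the labels do not call pairs, and it gave 31 genes and 0 members. Deviations from the group mean correlated at 0.17, 0.23 and 0.08 in these pairs and from -0.21 to 0.03 in the other combinations of a knockout with a wild-type library. Each library thus correlated most with its neighbour in index among the libraries of the other group. Deviations within a group sum to 0, so these correlations depend on each other. Libraries of the same group were not compared. Depth is unknown, so low members could not be given a counting error.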
